A study of Mus musculus with 4 samples.

Results

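The genes described here make, sense and break down prostaglandins, short-lived lipid signals derived from arachidonic acid. They are 10 genes, chosen by name and found by their Ensembl identifiers among the 42367 genes listed in at least 1 count table. Each matched 1 identifier and was listed for all 4 libraries. In this pathway a cyclooxygenase (Ptgs1, also called COX-1, or Ptgs2, COX-2) turns arachidonic acid into prostaglandin H2. Terminal synthases convert it into prostaglandin E2 (Ptges and Ptges3), thromboxane A2 (Tbxas1) or prostaglandin D2 (Hpgds). Prostaglandin E2 acts through G protein-coupled receptors, of which Ptger2 (EP2) and Ptger4 (EP4) raise cyclic AMP, and Hpgd starts its breakdown. Alox5ap serves the neighbouring branch, in which arachidonic acid is handed to 5-lipoxygenase for leukotriene synthesis. Prostaglandin E2 is known as a regulator of hematopoietic stem cell (HSC) number and of Wnt signaling, thromboxane as a product of platelets, Ptgs1 as the form that many cells express steadily, and Ptgs2 as the form that is induced by stimuli.

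The study asked how loss of Gfi1b, a transcriptional repressor of HSCs and megakaryocytes, alters gene expression in HSCs, and sequenced RNA of cells sorted from bone marrow of C57Bl6 mice. By the study's methods the HSCs were Lin- cKit+ Sca1+ CD48- CD150+ cells. The study's results text instead names this population CD41+/CD9+ HSCs, so whether it held all HSCs or that fraction is uncertain. The second population was the CD41low/CD9low HSCs, a gate meant to leave out megakaryocyte precursors. KO cells came from Rosa-Cre mice with floxed Gfi1b alleles (fl/fl), and WT cells, by the study's methods, from Rosa-Cre wt/fl mice, which carry 1 floxed allele. The series description instead gives floxed mice with or without ROSA-Cre, so the exact control genotype is uncertain. All mice had received tamoxifen 2 weeks earlier, the Rosa promoter drives Cre broadly and not in HSCs alone, and the age of the mice is not given in the sources used here. Marrow of 10 WT or 5 KO mice was pooled before sorting and each group is 1 library, so that no value below has a replicate. Intervals are exact 95% intervals for counting error, unless named otherwise, and say nothing of differences between mice or preparations. Because reads carry no molecular identifiers, they are not independent molecules and the real error is wider.

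The libraries held 50781007 counts on genes (WT HSCs), 41690708 (KO HSCs), 12732079 (WT CD41low/CD9low HSCs) and 19123185 (KO CD41low/CD9low HSCs), so 3 counts equalled 0.059, 0.072, 0.236 and 0.157 counts per 1000000 counts on genes (CPM) in this order. The sample titles name Gfi1 and the genotype labels Gfi1b. Gfi1b as a whole gene had 9256 counts in WT HSCs, 49910 in KO HSCs, 611 in WT CD41low/CD9low HSCs and 9741 in their KO counterpart. It was higher in both libraries labelled KO, and since this count adds the deleted exons to the retained ones it does not check the deletion. WT and KO below mean the libraries labelled so, and each direction rests on those labels. All 10 HSC markers were detected in each library, led by Kit, Hlf and Mecom, with summed levels of 1978 to 2559 CPM, whereas Cd48, which the HSC gate leaves out, lay between 1.26 and 7.75 CPM. Markers of other cells were not equal between libraries. In the order above, 11 megakaryocyte and platelet markers summed to 1725, 2470, 543.6 and 660.5 CPM, 12 myeloid markers to 618.7, 682, 1357 and 506.6 CPM, and 10 mast cell and basophil markers to 58.8, 89.1, 32.1 and 3.97 CPM. In bulk RNA, fewer cells of a type cannot be told apart from less RNA per cell.

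Promoter sequences are shown for Ptgs1 and Ptgs2, the pair of cyclooxygenases whose levels behaved differently, and for Ptges, which was the other member far lower in KO than in WT HSCs. They run from 250 bases before to 50 bases from the RefSeq gene start (build GRCm38.p6), 5′ to 3′ on the strand of the gene. Capitals mark matches on either strand to the motifs searched, none of which overlap in these 3 windows.
Ptgs1, chr2:36230176-36230475 (plus strand): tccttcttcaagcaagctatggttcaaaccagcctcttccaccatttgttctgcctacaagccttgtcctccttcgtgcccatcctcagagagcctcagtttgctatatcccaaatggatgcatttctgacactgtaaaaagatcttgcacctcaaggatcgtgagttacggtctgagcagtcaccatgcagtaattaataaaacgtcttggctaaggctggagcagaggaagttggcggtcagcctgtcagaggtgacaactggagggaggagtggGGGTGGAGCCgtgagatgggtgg
Ptgs2, chr1:150099781-150100080 (plus strand): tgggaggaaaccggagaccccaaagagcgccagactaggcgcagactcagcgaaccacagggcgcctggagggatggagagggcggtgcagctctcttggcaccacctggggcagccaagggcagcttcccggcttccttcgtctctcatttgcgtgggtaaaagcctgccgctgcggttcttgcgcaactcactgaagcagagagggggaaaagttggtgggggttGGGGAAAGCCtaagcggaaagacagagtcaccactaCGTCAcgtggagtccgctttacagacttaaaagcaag
Ptges, chr2:30903248-30903547 (minus strand): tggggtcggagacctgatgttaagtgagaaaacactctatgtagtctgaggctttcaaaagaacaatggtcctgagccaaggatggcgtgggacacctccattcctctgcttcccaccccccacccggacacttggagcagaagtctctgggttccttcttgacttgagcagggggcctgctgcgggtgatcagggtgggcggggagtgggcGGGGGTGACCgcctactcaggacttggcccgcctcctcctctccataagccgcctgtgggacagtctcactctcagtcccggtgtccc
In the Ptgs2 window, CGTCA, which is TGACG read on the other strand and is the core of a cyclic AMP response element, begins 13 bases after the first base of the gene. The match GGGGAAAGCC to a loose form of the NF-kB site, GGG and CC with any 5 bases between them, begins 23 bases before it. The Ptgs1 match to the same loose form begins 27 bases after the start and the Ptges match 38 bases before it. The starts used by RefSeq for Ptges and Tbxas1 lie well inside the genes as annotated by GENCODE, and those of Ptges3 and Hpgds slightly inside. Of all 32851 promoters of this length, 20.8% held TGACG and 50.8% held the loose NF-kB form. Of the 9 members with an entry, 2 held TGACG, in Ptgs2 and Ptges3, and 5 held the NF-kB form. The AP-1 motif TGANTCA (7.81% of all promoters) was found in Tbxas1, the TATA box TATAAA (13.6%) in Tbxas1 and Hpgd, and GATAA (25.4%) in Ptger2. Neither CTTTGA, the core of TCF/LEF sites (16%), nor AATCANNGC, a Gfi-like site (3.28%), was present in any of the 9 windows. The study names the shorter AATC as the GFI1B consensus motif. That form was not searched, so the windows cannot be said to lack it. These matches describe letters and not binding.

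Levels spanned about 3 orders of magnitude, and 4 genes carried nearly all of the reads. Per kilobase (kb) of exon, the highest median level over the 4 libraries was that of Alox5ap (70.8 CPM per kb), followed by Ptges3 (69.9), Ptgs1 (39.7), Tbxas1 (32.0), Ptger4 (4.58), Ptges (1.02), Hpgds (0.880), Hpgd (0.444), Ptgs2 (0.105) and Ptger2 (0.0610). Alox5ap, Ptges3, Ptgs1 and Tbxas1 together held 92.8% to 94.6% of the members' counts, which summed to 39290, 26798, 9931 and 13307. The ranges of neighbours in this order overlapped except between Ptges3 and Ptgs1, between Tbxas1 and Ptger4, and between Ptger4 and Ptges. HSCs of both gates thus held abundant RNA of the steadily expressed cyclooxygenase, of thromboxane synthase and of the leukotriene-branch protein, and little or none of the inducible cyclooxygenase. These are RNA levels, and no lipid was measured.

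**Figure D1:**
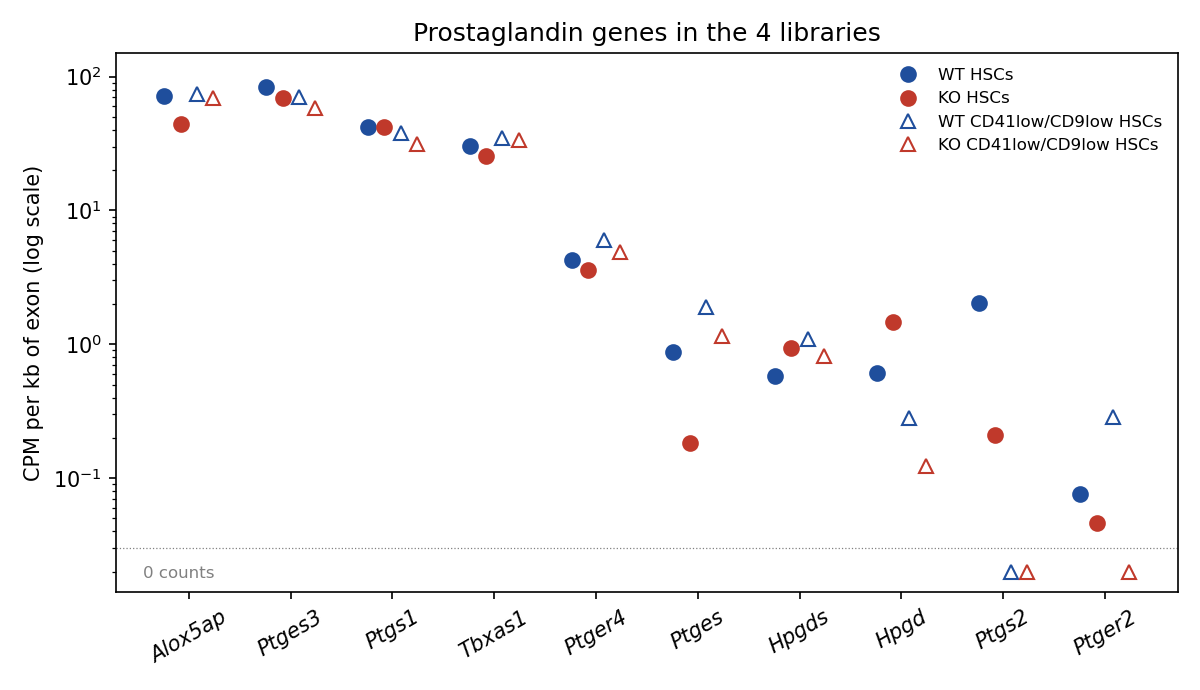
Level of each member in the 4 libraries, in CPM per kilobase of exon on a log scale, with genes ordered by median level. Each point is 1 library, filled circles are HSCs, open triangles CD41low/CD9low HSCs, blue WT and red KO, and points under the dotted line had 0 counts. Ptgs2 lay at 2.03 in WT HSCs, 0.210 in KO HSCs and at 0 counts in both CD41low/CD9low libraries, while Ptgs1 stayed between 31.3 and 41.9.

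KO and WT were compared within each population as the ratio of counts divided by size factors, and ratios above 1.5 and below 0.6, the cutoffs of the study, were counted among genes with at least 10 counts in 1 library of the pair. In HSCs all 10 members passed this filter. Hpgd and Hpgds lay above 1.5, where 14.1% of the 15910 genes lay, and Ptgs2 and Ptges lay below 0.6, where 10.3% lay. The median log2 ratio was -0.26 over the 10 members and -0.001 over all genes. In CD41low/CD9low HSCs 8 members passed, of which 0 lay above 1.5 (13.4% of 14844 genes) and 1, Ptger2, lay below 0.6 (12.0%). The median log2 ratio of these 8 was -0.29, beside 0.002 over all genes. Counts of 2 in 10 and 1 in 8 are near these backgrounds and are not read as a result about the pathway. Ratios under 1 in both populations were found for 6 of the 8 members that passed in both, namely Ptges, Ptges3, Tbxas1, Ptger2, Ptger4 and Alox5ap, and for 27.5% of the 14144 genes that passed in both. For 3 of these 6 (Ptges3, Ptges and Ptger4) the interval excluded 1 in both populations. The share of all genes with such intervals was not counted, and the intervals narrow with the number of counts alone. This is therefore not read as a result about the pathway.

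Whether KO differed from WT over both populations was asked with 1 model of the 4 libraries (edgeR, quasi-likelihood test), which adjusts for population and keeps 1 residual degree of freedom. By the study's methods both populations were sorted from the pooled marrow, so the 2 libraries of a genotype share mice and are not independent replicates of it. It called 47 genes higher in KO (0.319% of 14745) and 17 lower (0.115%), and 0 of the 10 members. At an unadjusted p under 0.05 it held 3 members, Ptgs2, Ptges and Alox5ap, all lower in KO. The share of all genes under this unadjusted cutoff was not taken, and the shares above are for adjusted p. This count is therefore not read as a result about the members. DESeq2 called 0 members on the same design, and limma-voom called 1, Ptgs2. The same edgeR fit called 1092 genes higher (7.41%) and 1705 lower (11.6%) in CD41low/CD9low HSCs than in HSCs. Of the members, 1 was among them, Ptgs2, which was lower. The gate, the sequencing depth and the list of genes counted all differ between the populations and cannot be told apart.

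**Figure D2:**
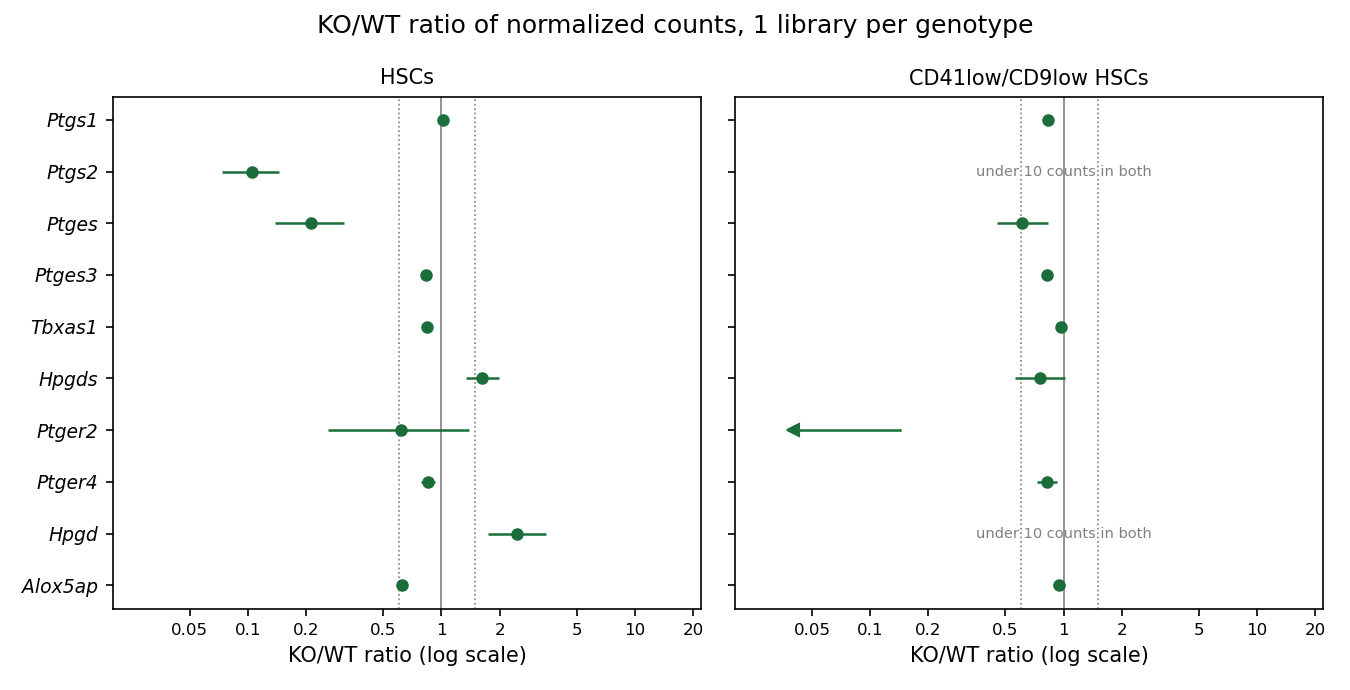
KO/WT ratio of normalized counts for the 10 members in HSCs and in CD41low/CD9low HSCs, on a log axis. Points are the ratio of 1 KO to 1 WT library, bars the exact 95% interval for counting error, dotted lines the cutoffs of 0.6 and 1.5, and the arrow marks Ptger2, which had 0 counts in KO CD41low/CD9low HSCs. In HSCs Ptgs2 (0.105) and Ptges (0.212) lie farthest to the left and Hpgd (2.44) farthest to the right.

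Among the cyclooxygenases, Ptgs2 was far lower in KO than in WT HSCs and was not detected in CD41low/CD9low HSCs, and Ptgs1 hardly differed. Ptgs2 (ENSMUSG00000032487, chr1:150100031-150108227, plus strand, GRCm38) had 472 counts in WT HSCs, 40 in KO HSCs and 0 in each CD41low/CD9low library. Only the WT HSC library thus held it above 1 CPM, at 9.30 CPM. The KO/WT ratio in HSCs was 0.105 (0.0738 to 0.145). Over the 4 libraries the log2 difference was -3.22 ± 1.07 (SE), with an adjusted p of 0.36 in edgeR, 0.999 in DESeq2 and 0.0259 in limma-voom. With 0 counts in both CD41low/CD9low libraries, these genotype values rest on 1 WT and 1 KO HSC library and add nothing from the second population. The CD41low/CD9low libraries were shallower, but at the level of the matching HSC library 124 WT and 19.2 KO counts would have fallen there. The interval of the CD41low/CD9low level over the HSC level ran from 0 to 0.0299 in WT and from 0 to 0.202 in KO. The population difference had an adjusted p of 0.00224 in edgeR and 0.0143 in limma-voom, and of 0.181 in DESeq2, where the call was lost. The antisense neighbour Ptgs2os, which starts just upstream on the other strand, had 5, 1, 0 and 0 counts.

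Ptgs1 (ENSMUSG00000047250, chr2:36230426-36252272, plus strand) had 8214 counts in WT HSCs, 6783 in KO HSCs, 1869 in WT CD41low/CD9low HSCs and 2323 in their KO counterpart. The KO/WT ratio was 1.02 (0.987 to 1.05) in HSCs, beside 0.829 (0.779 to 0.881) in the CD41low/CD9low pair, and the second interval alone excluded 1. The HSC ratio was 1.23 times (95% Wald interval 1.15 to 1.32) the CD41low/CD9low one, a difference that has no replicate and was not tested. The 4-library difference was -0.12 ± 0.15 on the log2 scale (edgeR adjusted p = 0.894). Per kilobase of exon, there were 4.87 units of Ptgs2 for each 100 units of Ptgs1 in WT HSCs and 0.50 in KO HSCs. A count of 0 allows up to 0.136 in WT and 0.11 in KO CD41low/CD9low HSCs. Ptgs1 therefore made up nearly all cyclooxygenase RNA in each library.

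Ptgs2 is induced within minutes to hours of many stimuli. It was therefore set beside 22 immediate-early genes with the same kind of response, among them transcription factors and phosphatases. A second list held 14 genes known to respond to cyclic AMP. All 22 immediate-early genes had KO/WT ratios below 1 in HSCs and 20 lay below 0.6 (10.3% of all genes), from 0.113 for Atf3 to 0.868 for Myc, with a median of 0.304, and none lay below Ptgs2. The most abundant in WT HSCs were Fos (67167 counts in WT and 13042 in KO HSCs, ratio 0.24), Jun (47669 and 19924, ratio 0.516) and Fosb (31610 and 6877, ratio 0.269), whereas Jund (2358 in WT and 4011 in KO) led in both CD41low/CD9low libraries. Their summed level was 5992 CPM in WT HSCs, 2190 in KO HSCs, 957.9 in WT and 912.7 in KO CD41low/CD9low HSCs, so WT HSCs held the highest level, KO HSCs lay between, and the CD41low/CD9low libraries were the lowest. In CD41low/CD9low HSCs 19 of them passed the filter, of which 12 had a ratio below 1, 4 below 0.6 (12.0% of all genes) and 2 above 1.5 (13.4%). In the 4-library edgeR fit, 2 of the 22 fell in KO, beside 0.115% of all genes (Nr4a1, by 2.10 on the log2 scale with an adjusted p of 0.00171, and Btg2, by 0.91 with an adjusted p of 0.041), and 16 of the 22 were lower in CD41low/CD9low HSCs, beside 11.6%.

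Of the cyclic AMP list, 13 of 14 genes passed the filter in HSCs, 6 with ratios below 0.6 (10.3% of all genes) and 1, Crem, above 1.5 (14.1%). The CD41low/CD9low pair also had 13 that passed, 4 below 0.6 (12.0%) and 1 above 1.5 (13.4%). Nr4a1, Nr4a2, Nr4a3 and Fosb stand in both lists, and the summed level of the list was 1643, 663.1, 710.3 and 624.1 CPM. Its genes with the most counts summed over the 4 libraries were Fosb, Pde4b and Sik1, a kinase induced by cyclic AMP, and the order within single libraries differed. Sik1 had 11754 counts in WT and 1788 in KO HSCs (ratio 0.188), but 761 and 1146 in CD41low/CD9low HSCs (1.0). Pde4b, a phosphodiesterase that degrades cyclic AMP, had ratios of 0.946 and 1.15. The summed immediate-early level moved with Ptgs2 across these libraries, and its part in the Ptgs2 values was not tested.

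**Figure D3:**
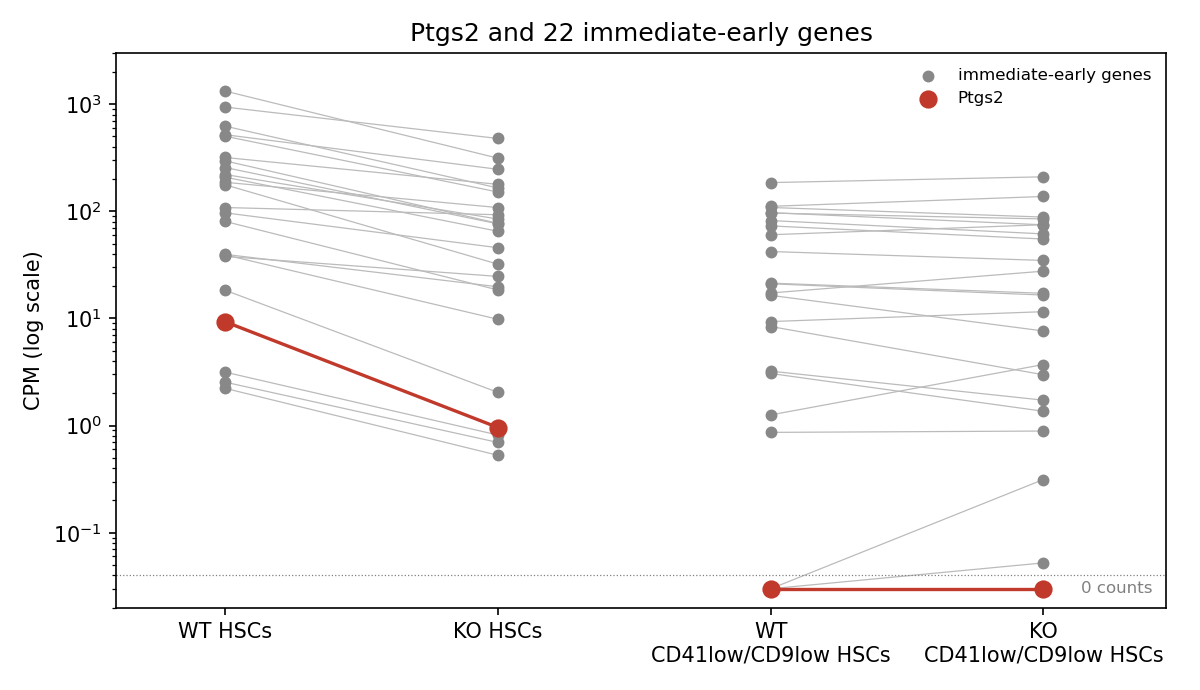
Level of Ptgs2 (red) and of 22 immediate-early genes (grey) in CPM on a log scale, with a line joining WT and KO within each population and points under the dotted line at 0 counts. All lines slope down from WT to KO in HSCs, Ptgs2 from 9.30 to 0.959 CPM, while most genes lie lower in the CD41low/CD9low libraries and differ less between them.

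The genes nearest in pattern were found by the distance between log2(CPM + 0.5) profiles centred over the 4 libraries, among 13274 genes with at least 100 counts in all. For Ptgs2 they were Gm10800 (distance 0.627), Fosb (0.634) and Zfp36 (0.752), the last 2 being immediate-early genes of the list above. For Ptgs1 they were Zfp109 (0.023), Rfc1 (0.023) and Syde2 (0.03), all of them with nearly flat profiles. With 4 libraries, such likeness is a description.

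Among the terminal synthases, Ptges was lower in KO in both populations, Ptges3 and Tbxas1 were slightly lower, and Hpgds was higher in KO HSCs. Ptges (ENSMUSG00000050737, chr2:30889471-30929863, minus strand), the inducible microsomal prostaglandin E synthase that is often coupled to Ptgs2, had 175 counts in WT HSCs, 30 in KO HSCs, 95 in WT CD41low/CD9low HSCs and 87 in their KO counterpart. Its KO/WT ratio was 0.212 (0.139 to 0.313) in HSCs, beside 0.611 (0.451 to 0.825) in the CD41low/CD9low pair. The HSC ratio was 0.347 times (95% Wald interval 0.213 to 0.562) the other, which was not tested. The 4-library log2 difference was -1.46 ± 0.64 (edgeR adjusted p = 0.515). Unlike Ptgs2, Ptges was detected in CD41low/CD9low HSCs. Its normalized level there was 2.07 times (1.59 to 2.67) the HSC level in WT and 6.05 times (3.96 to 9.50) in KO, with a population log2 difference of 1.79 ± 0.64 (edgeR adjusted p = 0.0746). The inducible cyclooxygenase and the inducible synthase were thus both low in KO HSCs, while between the populations their values stood in opposite order, for Ptges without passing the test.

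Ptges3 (ENSMUSG00000071072, chr10:128058954-128077272, plus strand), the cytosolic synthase that is also the p23 co-chaperone of Hsp90, had 9468, 6359, 2003 and 2450 counts in the order WT HSCs, KO HSCs, WT CD41low/CD9low HSCs and KO CD41low/CD9low HSCs. Its ratios were nearly equal in the populations, 0.829 (0.803 to 0.856) and 0.815 (0.768 to 0.866), and their quotient of 1.02 (95% Wald interval 0.951 to 1.09) did not leave 1. The 4-library log2 difference was -0.28 ± 0.14 (edgeR adjusted p = 0.566). A pseudogene, Ptges3-ps, held 1183, 655, 143 and 127 counts with ratios of 0.683 and 0.592. Reads without a unique alignment were left out of the counts, and other reads of near-identical copies may be misplaced between them, so both are uncertain.

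Tbxas1 (ENSMUSG00000029925, chr6:38875404-39084585, plus strand) had the most counts of all members, 14066 in WT HSCs, 9602 in KO HSCs, 4008 in WT and 5829 in KO CD41low/CD9low HSCs. The KO/WT ratio was 0.843 (0.821 to 0.865) in HSCs, beside 0.97 (0.931 to 1.01) in the CD41low/CD9low pair. The 4-library log2 difference was -0.15 ± 0.14 (edgeR adjusted p = 0.833). In CD41low/CD9low HSCs its normalized level was 1.09 times (1.05 to 1.12) the HSC level in WT and 1.27 times (1.23 to 1.31) in KO (population log2 difference 0.23 ± 0.14, edgeR adjusted p = 0.279). The megakaryocyte and platelet markers behaved otherwise. Of these 11, 10 were lower in the CD41low/CD9low libraries by the edgeR fit, beside 11.6% of all genes. This list holds Itga2b (CD41) and Cd9, the antigens of the gate, so that order was in part set by the sort. The summed level of the 11 was higher in KO than in WT in both populations, as given above. Itgb3 carried much of that difference, at 202.5 CPM in WT and 663.4 in KO HSCs and at 51.4 and 140.6 in CD41low/CD9low HSCs, and was the 1 marker of the 11 called higher in KO by the edgeR fit. Ratios lay below 1 for 2 of 11 in HSCs, Pf4 (0.889) and Gp9 (0.904), and for 3 of the 10 that passed the filter in CD41low/CD9low HSCs, Pf4 (0.922), Ppbp (0.792) and Vwf (0.61).

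Hpgds (ENSMUSG00000029919, chr6:65117293-65144908, minus strand), which makes prostaglandin D2 in blood cells, had 190 counts in WT HSCs, 251 in KO HSCs, 89 in WT CD41low/CD9low HSCs and 101 in their KO counterpart. The KO/WT ratio was 1.63 (1.34 to 1.98) in HSCs, beside 0.757 (0.563 to 1.02) in the CD41low/CD9low pair. The quotient of these ratios was 2.16 (95% Wald interval 1.53 to 3.03), and it was not tested. The 4-library fit, which assumes 1 difference for both populations, gave 0.16 ± 0.49 on the log2 scale (edgeR adjusted p = 0.972). Mast cells are known to express Hpgds, and the summed mast cell and basophil markers given above had the direction of Hpgds within each population, with 58.8 CPM in WT and 89.1 in KO HSCs, and 32.1 in WT and 3.97 in KO CD41low/CD9low HSCs. Between the populations their order in WT was not that of Hpgds, whose normalized level was 1.79 times (1.37 to 2.31) as high in CD41low/CD9low HSCs as in HSCs. In KO the Hpgds level there was 0.84 times (0.66 to 1.06) the HSC level. That is the direction of the marker sum, with an interval that included 1. Most of the sum came from the basophil proteases Prss34 (1295, 2046, 266 and 1 counts) and Mcpt8 (529, 795, 68 and 0). Other markers went against it, since Fcer1a had 440 counts in WT and 206 in KO HSCs (ratio 0.578), and Cpa3 had 17 and 65 counts in WT and KO CD41low/CD9low HSCs (2.55). The mast cell markers Mcpt4, Tpsb2, Tpsab1 and Mrgprb2 were at 0 counts in each library and Cma1 had at most 3. The part of these cells in the Hpgds values was not tested.

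The prostaglandin E2 receptors differed by nearly 2 orders of magnitude in level. Ptger4 (ENSMUSG00000039942, chr15:5206661-5244187, minus strand) had 1442 counts in WT HSCs, 1000 in KO HSCs, 505 in WT and 622 in KO CD41low/CD9low HSCs. The KO/WT ratios were 0.856 (0.789 to 0.928) and 0.821 (0.729 to 0.925), and the 4-library log2 difference was -0.26 ± 0.20 (edgeR adjusted p = 0.774). Its normalized level in CD41low/CD9low HSCs was 1.33 times (1.2 to 1.48) the HSC level in WT and 1.30 times (1.17 to 1.44) in KO, with a population log2 difference of 0.40 ± 0.20 (edgeR adjusted p = 0.191). Exons of Ptger4 overlap Ttc33 by 82 bases and the pseudogene Gm15937 by 1015 bases on the other strand. The libraries were strand-specific, but the strand setting of the counting is not given in the sources used here. Ttc33 held 2376, 2010, 713 and 1103 counts and Gm15937 held 48, 98, 14 and 66, so the Ptger4 counts carry that uncertainty.

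Ptger2 (ENSMUSG00000037759, chr14:44988195-45003820, plus strand) was near the limit of detection, with 20 counts in WT HSCs, 10 in KO HSCs, 19 in WT and 0 in KO CD41low/CD9low HSCs. In HSCs the ratio of 0.617 (0.258 to 1.38) did not leave 1. In CD41low/CD9low HSCs the interval of the ratio ran from 0 to 0.143. The 4-library log2 difference was -2.82 ± 2.34 (edgeR adjusted p = 0.798). Most myeloid markers were also lower in that KO library, with 10 of 12 below a ratio of 0.6 (12.0% of all genes). Lyz2 (0.756) and Cd14 (1.0) were not below it. The summed levels of the 12 were 1357 CPM in WT and 506.6 CPM in KO, and none of them was at 0. The part of these markers in the Ptger2 value was not tested.

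Of the 7 other prostanoid receptors, Ptger3 (EP3, coupled to a fall in cyclic AMP) and Tbxa2r (the thromboxane receptor) were the most abundant. Ptger3 had 2083, 1620, 382 and 606 counts, or 7.21, 6.83, 5.28 and 5.57 CPM per kb, with KO/WT ratios of 0.96 (0.899 to 1.02) and 1.06 (0.929 to 1.21). Tbxa2r had 1108, 721, 114 and 166 counts, or 11.4, 9.01, 4.67 and 4.52 CPM per kb, with ratios of 0.803 (0.73 to 0.883) and 0.971 (0.76 to 1.24). It was lower in CD41low/CD9low HSCs (log2 difference -1.2 ± 0.28, edgeR adjusted p = 0.012). The EP1 receptor Ptger1 was the opposite, with 27, 18, 74 and 86 counts and a difference of 3.34 ± 0.81 (edgeR adjusted p = 0.0153). The prostacyclin receptor Ptgir had 72 counts in WT and 19 in KO HSCs (ratio 0.326, 0.185 to 0.546), and 10 and 18 in CD41low/CD9low HSCs (1.2, 0.525 to 2.91). Ptgdr was at 0 counts in each library, Ptgdr2 had 5, 5, 7 and 0 counts, and Ptgfr 5, 0, 0 and 0. Per kilobase, Ptger3, Ptger4 and Tbxa2r thus made up most of the prostanoid receptor RNA, at 3.61 CPM per kb or more in each library.

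**Figure D4:**
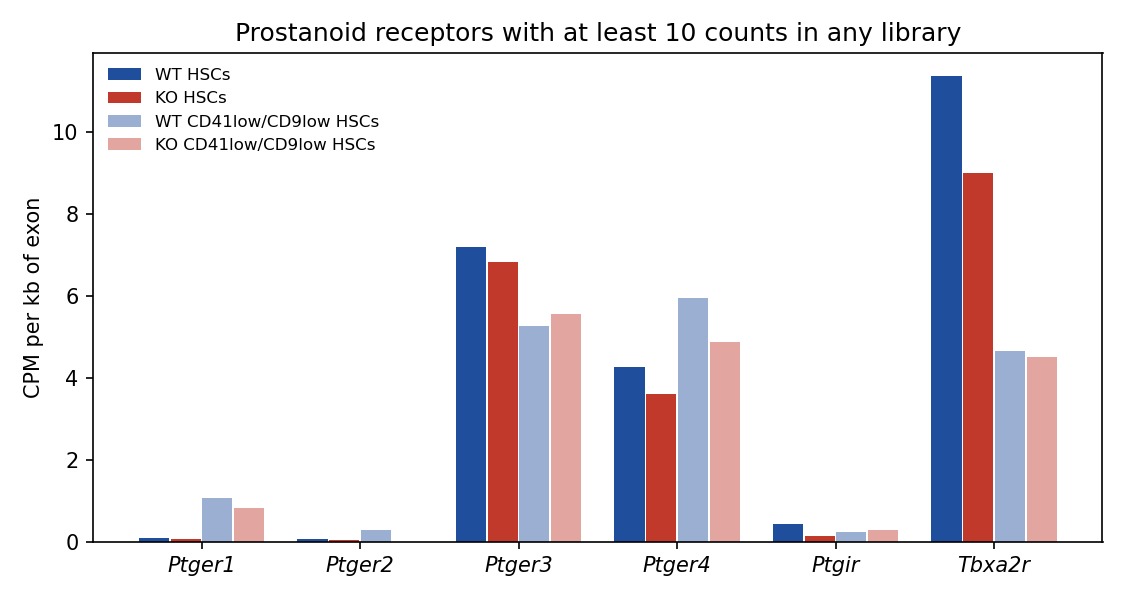
Prostanoid receptors with at least 10 counts in any library, in CPM per kilobase of exon, with 1 bar per library and an axis from 0. Tbxa2r (11.4 and 9.01 in HSCs, 4.67 and 4.52 in CD41low/CD9low HSCs), Ptger3 and Ptger4 are high, Ptger1 is visible mainly in the CD41low/CD9low libraries, and Ptger2 is close to 0 throughout.

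Hpgd (ENSMUSG00000031613, chr8:56294585-56321043, plus strand), the dehydrogenase that inactivates prostaglandin E2, was higher in KO HSCs at a low level. It had 52 counts in WT HSCs, 103 in KO HSCs, 6 in WT CD41low/CD9low HSCs and 4 in their KO counterpart. The HSC ratio was 2.44 (1.73 to 3.48). The CD41low/CD9low counts lay under the filter and gave a ratio of 0.444 (0.0923 to 1.87), which allows either direction. In KO cells the CD41low/CD9low level was 0.0811 times (0.0217 to 0.214) the HSC level, and in WT cells 0.44 times (0.154 to 1.02). The 4-library fit gave 0.25 ± 1.36 for genotype (edgeR adjusted p = 0.983) and -2.37 ± 1.37 for population (edgeR adjusted p = 0.263) on the log2 scale.

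Alox5ap (ENSMUSG00000060063, chr5:149264767-149288153, plus strand), the protein that presents arachidonic acid to 5-lipoxygenase, had a lower level in KO than in WT HSCs. It had 5191 counts in WT HSCs, 2620 in KO HSCs, 1337 in WT and 1891 in KO CD41low/CD9low HSCs. Per kilobase, the KO HSC library lay at 44.3 CPM per kb, below the other 3, which lay between 69.6 and 73.9. The KO/WT ratio was 0.623 (0.594 to 0.653) in HSCs, just above the cutoff of 0.6, and 0.943 (0.879 to 1.01) in CD41low/CD9low HSCs. The quotient was 0.661 (95% Wald interval 0.607 to 0.719), and it was not tested. The 4-library log2 difference was -0.39 ± 0.17 (edgeR adjusted p = 0.527). Alox5 itself had 285 counts in WT and 234 in KO HSCs (ratio 1.01, 0.849 to 1.21), against 77 in WT and 8 in KO CD41low/CD9low HSCs (0.0693, 0.0289 to 0.143). Alox5 is known from granulocytes and monocytes. Most of the myeloid markers given above beside Ptger2 were lower in the same library, and their part was not tested.

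The pathway was then widened to 40 other eicosanoid genes, from phospholipases to leukotriene receptors. In HSCs 35 passed the filter, 6 above 1.5 (14.1% of all genes) and 6 below 0.6 (10.3%), with a median log2 ratio of -0.08. In CD41low/CD9low HSCs 33 passed, 4 above (13.4%) and 3 below (12.0%), with a median of -0.12. These counts were not tested against those of all genes and are not read as a result about the pathway. The 4-library edgeR fit called 0 of 33 tested genes for genotype, while DESeq2 called 0 and limma-voom 1, Alox12. At an unadjusted p under 0.05 the edgeR fit held 3, again without the share of all genes to set beside it. For population it called 4 higher and 7 lower in CD41low/CD9low HSCs, read beside 7.41% and 11.6% of all genes.

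Of the genes that release or activate arachidonic acid, 10 passed the filter in HSCs, with 1 above 1.5 (14.1% of all genes) and 2 below 0.6 (10.3%). The CD41low/CD9low pair also had 10 that passed, with 1 above 1.5 (13.4%) and 0 below 0.6 (12.0%). Pla2g4a, the cytosolic phospholipase that frees arachidonic acid, had 9932, 6738, 1369 and 1912 counts, with KO/WT ratios of 0.837 (0.812 to 0.864) and 0.931 (0.868 to 0.999). It was lower in CD41low/CD9low HSCs (log2 difference -0.84 ± 0.14, edgeR adjusted p = 0.00254). Mgll, which makes arachidonic acid from an endocannabinoid, had 590 counts in WT HSCs, 1004 in KO HSCs, 26 in WT CD41low/CD9low HSCs and 85 in their KO counterpart. Its ratios were alike, 2.10 (1.90 to 2.33) and 2.18 (1.39 to 3.52), with a 4-library log2 difference of 1.09 ± 0.32 (edgeR adjusted p = 0.264). It was lower in CD41low/CD9low HSCs (-2.53 ± 0.34, edgeR adjusted p = 0.000664). Acsl4, an acyl-CoA synthetase for arachidonic acid, was also lower there (-0.71 ± 0.16, edgeR adjusted p = 0.0112), and Daglb, a diacylglycerol lipase, and Faah, a fatty acid amide hydrolase, were higher (0.62 ± 0.17 and 0.96 ± 0.27, edgeR adjusted p = 0.0265 and 0.027). Faah had 939 counts in WT and 407 in KO HSCs, a ratio of 0.535 (0.475 to 0.602).

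In the synthesis, transport and breakdown groups, Fam213b, a prostamide and prostaglandin F synthase, had 48 and 94 counts in WT and KO HSCs (ratio 2.42, 1.69 to 3.50) and 28 and 95 in CD41low/CD9low HSCs (2.26, 1.47 to 3.58). The prostaglandin transporter Slco2a1 was higher in CD41low/CD9low HSCs (141, 115, 173 and 208 counts, log2 difference 2.07 ± 0.40, edgeR adjusted p = 0.00481), and the exporter Abcc4 was lower (-0.59 ± 0.15, edgeR adjusted p = 0.0203). The reductase Zadh2 was lower too (-1.16 ± 0.27, edgeR adjusted p = 0.0123). Ptgr1, a prostaglandin reductase, had ratios of 0.59 (0.526 to 0.66) in HSCs, beside 0.656 (0.535 to 0.806) in the CD41low/CD9low pair.

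In the lipoxygenase and leukotriene branch, Alox12, the platelet lipoxygenase, had 303 and 904 counts in WT and KO HSCs (ratio 3.68, 3.23 to 4.21) but 4 and 11 in CD41low/CD9low HSCs (1.83, 0.543 to 7.89), and was lower there (-4.92 ± 0.52, edgeR adjusted p = 0.000132). The summed megakaryocyte and platelet markers had these directions too, for population in part by the choice of gate. For genotype, Pf4 and Gp9 in HSCs and Pf4, Ppbp and Vwf in the CD41low/CD9low pair went against them. The part of these markers was not tested. The leukotriene receptor Cysltr1 had 10 and 70 counts in WT and KO HSCs (ratio 8.64, 4.43 to 18.8) and 0 in both CD41low/CD9low libraries. Ephx2, an epoxide hydrolase, had 19 and 71 counts in HSCs (4.61, 2.75 to 8.11) and 8 and 4 in CD41low/CD9low HSCs.

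**Figure D5:**
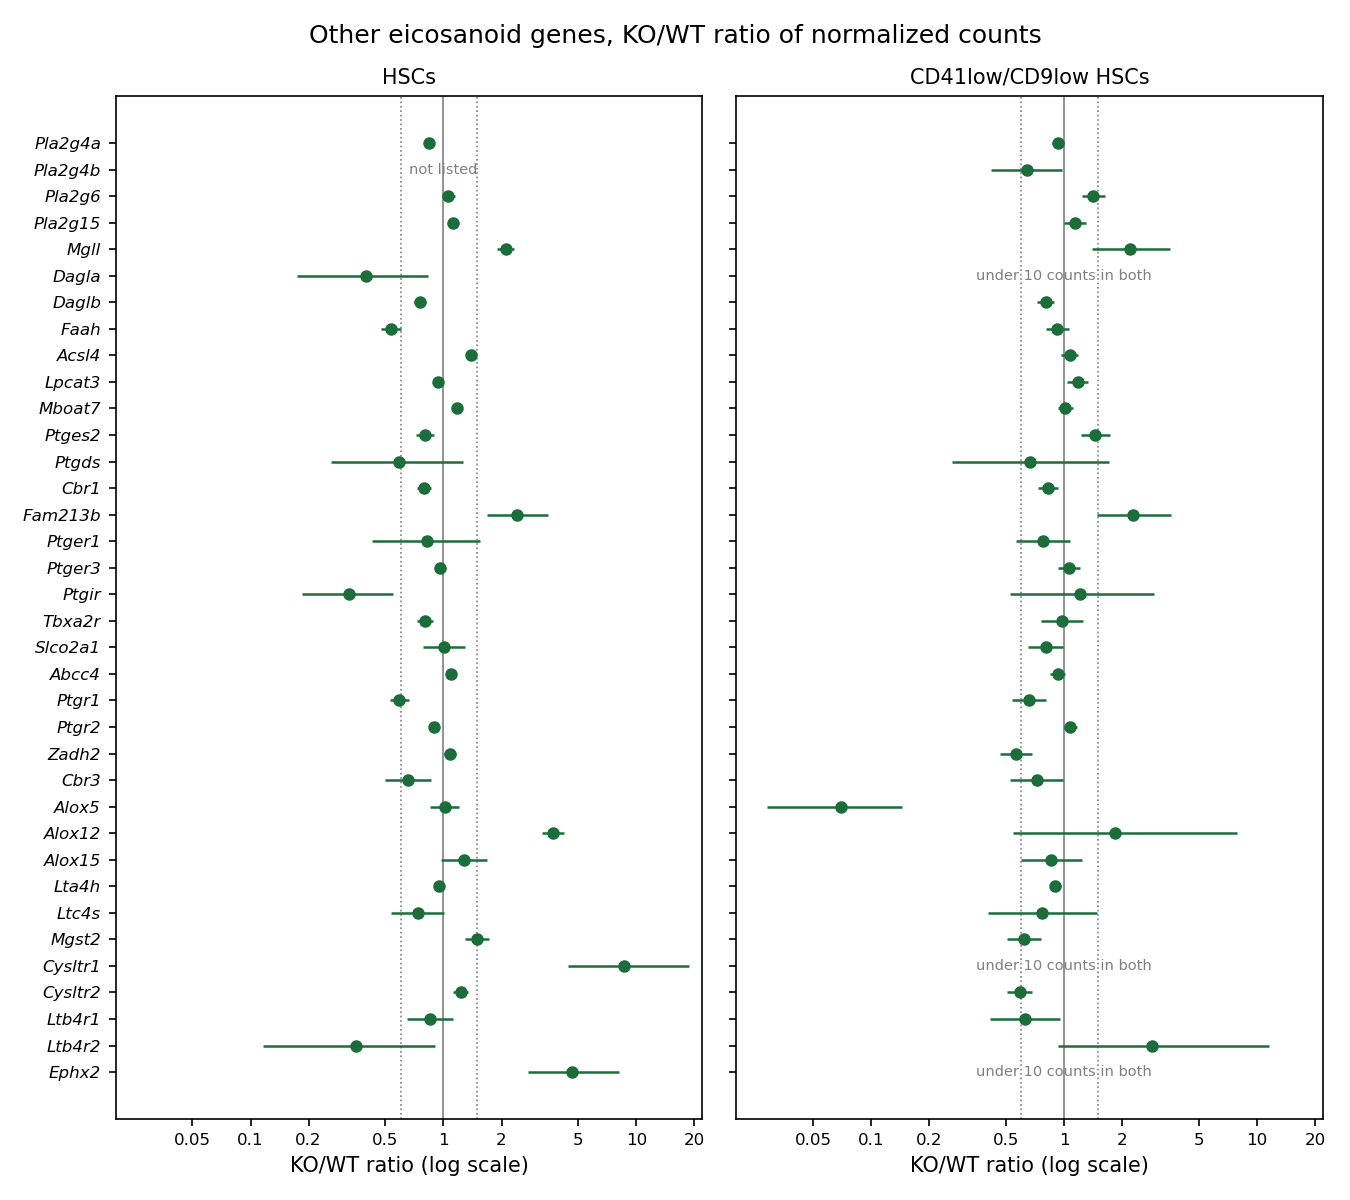
KO/WT ratio of normalized counts for the other eicosanoid genes that passed the filter in at least 1 population, on a log axis, with exact 95% intervals for counting error, a solid line at 1 and dotted lines at the cutoffs of 0.6 and 1.5. Most genes lie near 1, Mgll, Fam213b and Alox12 lie above 1.5 in both populations, Alox12 with a wide interval in CD41low/CD9low HSCs, and Alox5 lies at 0.0693 in CD41low/CD9low HSCs only.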

How the data were processed

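RNA of 4 sorted, pooled populations was sequenced from strand-specific libraries. The authors deposited raw counts per Ensembl gene. The submitters' processing notes name TopHat2 2.0.10, SAMtools, HTSeq, DESeq and build mm10. The HTSeq settings and annotation release are not given in the sources used here, and the populations share 37140 of 42367 genes. Lines that name no gene were left out. In the order WT HSCs, KO HSCs, WT and KO CD41low/CD9low HSCs, no_feature reads were 80.0, 105.3, 62.0 and 60.1 per 100 counts. Lines for alignments that were not unique held 56765335, 50687282, 13316907 and 18398426 in this order. Near-identical copies and overlapping genes may lose or exchange reads.

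Size factors were medians of ratios within each pair, and genes with at least 10 counts in 1 library were kept. Ratios carry Clopper-Pearson intervals and no p. The only test was edgeR 4.0.16 (glmQLFit, TMM, filterByExpr, Benjamini-Hochberg) on 4 libraries in R 4.3.3, tested on simulated data. Populations, which share mice, then stand in for replicates. The SE given with edgeR differences was derived from the test, as the size of the log2 difference over the square root of the F statistic. DESeq2 1.42.0, limma 3.58.1, other scalings and filters, a pseudocount of 1 and an exon-length correction were alternatives. CPM uses the total on genes, exon lengths and coordinates GENCODE M21, promoters RefSeq, with an entry for 9 of 10 members.

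The members and lists were chosen with earlier results of these data known. Named were all members, listed eicosanoid genes called by the fit or past a ratio cutoff with at least 50 counts, prostanoid receptors, the 3 most counted genes of the response lists, and the 3 genes nearest to Ptgs1 and Ptgs2. Genes of the response and marker lists beside these were named after their values were seen, among them Nr4a1, Btg2, Atf3, Myc, Crem, Jund, Fcer1a, Pf4, Gp9 and Ppbp. B-cell, T/NK, erythroid and stromal marker lists summed to 17.9 to 30.8, 16.3 to 57.7, 17.3 to 60.2 and 0.366 to 61.6 CPM.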

Additional observations from a re-analysis of the deposited data

Results flagged for a closer look

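No member had intervals that excluded 1 in opposite directions in the 2 populations. Of the other eicosanoid genes 5 did, each with 1 library per group, so that the difference was not tested. The quotient of the HSC ratio over the CD41low/CD9low ratio was 0.798 (95% Wald interval 0.694 to 0.917) for the acyltransferase Lpcat3, with KO/WT ratios of 0.937 and 1.18. For the prostaglandin E synthase Ptges2 the quotient was 0.555 (0.453 to 0.679), with ratios of 0.802 and 1.44. The opposite order was found for Zadh2 (1.93, 1.58 to 2.37), the glutathione transferase Mgst2 (2.43, 1.91 to 3.10) and the leukotriene receptor Cysltr2 (2.09, 1.76 to 2.49). Their HSC ratios were 1.08, 1.5 and 1.23, and their CD41low/CD9low ratios 0.56, 0.618 and 0.587.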

How the results depend on the processing

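No paired analysis was possible because each group is 1 library and the shared number 1 names no pair. Leaving out a library leaves no residual degree of freedom, so this was not run. Over the other scalings and a pseudocount, the HSC ratio of Ptgs2 lay between 0.103 and 0.107 and that of Ptges between 0.209 and 0.217. Correction for exon length gave 0.221 for Ptges, moved the HSC ratios of Ptgs1, Ptges3, Tbxas1 and Alox5ap to 1.06, 0.886, 0.751 and 0.713, and left 0 members past a cutoff in CD41low/CD9low HSCs, because the ratio of 0 of Ptger2 has no logarithm. Requiring 50 counts left 1431 genes above and 792 below the cutoffs in HSCs, and 980 and 702 in CD41low/CD9low HSCs, whereas without a filter 4354 and 2649 passed in HSCs and 3113 lay above in CD41low/CD9low HSCs. For genotype over the 4 libraries, 254 genes were higher and 166 lower without a filter, 201 and 93 with limma-voom, and 29 lower with DESeq2. The population difference of Ptger2 turned from -0.20 to 0.65 on the log2 scale with limma-voom (adjusted p = 0.815). Ptges passed for population without a filter (1.77, edgeR adjusted p = 0.0361), and Ptgs2 was lost there with DESeq2 (-8.17, adjusted p = 0.181) and gained for genotype with limma-voom (-3.15, adjusted p = 0.0259). Requiring 50 counts in 2 libraries removed Ptgs2 and Ptger2 from the fit. The cause of the other moves was not tested. Counts under about 20 limit Ptger2 and, in CD41low/CD9low HSCs, Hpgd.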
